A study of Mus musculus with 24 samples.

Results

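The genes described here encode enzymes of the pentose phosphate pathway and its close partners in NADPH supply: *Pgls*, *Pgd*, *Rpia*, *Rpe*, *Tkt*, *Taldo1*, *Me1*, *Idh1* and *Prps1*. They were taken by name, 9 of the 55291 gene symbols counted in the RNA-seq experiment, and all 9 had counts in each of the 24 libraries and passed the filter on low counts in every comparison. The RNA came from proliferating C2C12 cells, a mouse myoblast line in wide use, although the sample labels call the cells primary mouse myoblasts and name a lipid transfection where the study's methods describe lentiviral transduction. Every line carried an shRNA construct and had been selected with puromycin as a pool: scr cells held a scrambled control, and the knockdown (KD) cells an shRNA against *Baf180* (gene *Pbrm1*, a subunit found in the PBAF form of the SWI/SNF chromatin remodeler), *Baf250a* (*Arid1a*, canonical BAF) or *Brd9* (non-canonical BAF). The methods list 2 shRNAs for each target, and the labels do not say which one a library carried. Each line was grown for 48 h without added metal (NT), in 100 µM CuSO4 (Cu) or in 50 µM ZnSO4 (Zn), with 2 independent biological replicates of each of the 12 conditions.

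Total counts ran from 495778 to 75179394 per library (median 22158430). The lowest was *Baf250a* KD Zn replicate 2, in which 12613 genes were detected against at least 20114 in every other library. Several results that rest on it are therefore also given without it. The mean Zn response, the levels per length and several comparisons of *Baf250a* KD with scr are given only with it. The targeted genes were lowest in the lines that target them: *Pbrm1* at 42.2 to 75.7 CPM in *Baf180* KD and at 99.9 to 227 CPM in scr, *Arid1a* at 92.0 to 144 CPM in *Baf250a* KD and at 266 to 308 CPM in scr, and *Brd9* at 13.8 to 17.9 CPM in *Brd9* KD and at 27.2 to 32.4 CPM in scr. Of the 6 myoblast markers, *Des*, *Cdh15*, *Myod1*, *Myf5* and *Chrng* were detected in all libraries and *Pax7* was low (median 2.14 CPM, at 0 in 1 library). Their summed level was 2194 to 3214 CPM in scr, 1501 to 1710 CPM in *Baf180* KD, 1107 to 1282 CPM in *Baf250a* KD and 1546 to 1877 CPM in *Brd9* KD. The summed level of 5 differentiation markers was 56.8 to 88.7 CPM in scr, 102 to 144 CPM in *Baf180* KD, 46.5 to 66.1 CPM in *Baf250a* KD and 24.6 to 29.2 CPM in *Brd9* KD. The 7 markers of blood, endothelium, epithelium, glia and fat summed to at most 1.18 CPM, with *Sox10* at 0 in 23 libraries and *Cdh5* and *Epcam* at 0 in 20. In bulk RNA, fewer cells of a type and less RNA per cell cannot be told apart.

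The pentose phosphate pathway branches from glycolysis at glucose-6-phosphate. Its oxidative branch, which includes 6-phosphogluconolactonase (*Pgls*) and, at its last step, 6-phosphogluconate dehydrogenase (*Pgd*), reduces NADP+, and NADPH feeds glutathione and thioredoxin reduction and fatty acid synthesis. In the non-oxidative branch, ribose-5-phosphate isomerase (*Rpia*) and ribulose-phosphate 3-epimerase (*Rpe*) interconvert the pentose phosphates, and transketolase (*Tkt*) and transaldolase (*Taldo1*) exchange carbon units with glycolytic sugars. Malic enzyme 1 (*Me1*) and isocitrate dehydrogenase 1 (*Idh1*) are other sources of NADPH in the cytosol, and phosphoribosyl pyrophosphate synthetase 1 (*Prps1*) turns ribose-5-phosphate into the precursor of nucleotides. Several of these genes are known targets of NRF2, the transcription factor of the antioxidant response, which binds antioxidant response elements in DNA.

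Coordinates are those of GRCm38, with the gene models of GENCODE M21. *Pgls* lies at chr8:71592176-71601092 on the plus strand and *Pgd* at chr4:149149991-149166771 on the minus strand. *Rpia* lies at chr6:70765720-70792232 (minus), *Rpe* at chr1:66700831-66719805 (plus), *Tkt* at chr14:30548359-30574720 (plus) and *Taldo1* at chr7:141392199-141402968 (plus). *Me1* lies at chr9:86581371-86695953 (minus), *Idh1* at chr1:65158616-65186500 (minus) and *Prps1* at chrX:140456613-140476140 (plus). Reads were counted by strand, so *Kansl1l*, which overlaps *Rpe* on the other strand, is counted apart, while *Pgls* overlaps *Fam129c* on its own strand. *Prps1l3*, a near copy of *Prps1*, had a median of 648.5 counts against 726 for *Prps1*, and since reads that map to several places were dropped, the split between the pair is uncertain. The other copies, *Tktl1*, *Tktl2* and *Prps1l1*, had at most 3 counts in any library.

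The starts of the 9 genes were searched for 2 DNA motifs, because the genes were measured under metals and include NRF2 targets. The windows were RefSeq's promoters (GRCm38.p6), which run from 250 bases before to 50 bases after an annotated start, and both strands were searched. The core of the antioxidant response element, TGACNNNGC, was found in a window of 2 members, *Pgd* and *Me1*, against 13.99% of all 27025 genes with a window. The 30 bases around each match are shown on the strand of the match, with the matched core in capitals.
Pgd, chr4:149166060-149166089, minus strand: atttcagagcTGACATTGCactgatcggac
Me1, chr9:86695901-86695930, minus strand: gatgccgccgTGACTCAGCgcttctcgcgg
The match of *Me1* lies 6 bases before the RefSeq start, inside an untranslated exon of a longer GENCODE transcript. The match of *Pgd* begins 3 bases after an alternative, downstream start and lies in a coding exon, and the window of the upstream start of *Pgd* held no match.

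The cores of the metal response element, TGCACNC and TGCGCNC, to which the metal-sensing factor MTF1 binds, were found in a window of 2 members, *Pgd* and *Rpia*, against 28.23% of all genes. One match of each gene is shown in the same way.
Pgd, chr4:149166162-149166191, plus strand: gactggcagccTGCACCCttctcggctcac
Rpia, chr6:70792325-70792354, minus strand: ggcgggcgattTGCACACtagggtcgatcg
The *Pgd* match lies in an intron 97 bases before the downstream start, with a further match 143 bases before it. No match of either motif was found in the windows of *Pgls*, *Rpe*, *Tkt*, *Taldo1*, *Idh1* or *Prps1*, which says only that these letters are not in those windows.

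Levels of different genes were compared per length, as RPKM (CPM divided by the kilobases of exon). In the oxidative branch *Pgd* was at 38.3 ± 10.7 RPKM (mean ± SD over the 24 libraries) and *Pgls* at 15.6 ± 2.98. In the non-oxidative branch *Taldo1* was at 39.9 ± 8.0 RPKM and *Tkt* at 14.4 ± 3.84, while the isomerase and the epimerase were the least expressed members, *Rpe* at 7.05 ± 1.45 and *Rpia* at 2.36 ± 0.617. *Idh1* was at 24.1 ± 7.64 RPKM, *Me1* at 18.9 ± 2.97 and *Prps1* at 18.9 ± 3.31. Neighbours in this order whose means lay closer than the larger of their SDs were *Taldo1* and *Pgd*, and each pair from *Idh1* through *Me1*, *Prps1* and *Pgls* to *Tkt*. *Rpe* and *Rpia* held the last ranks in every library, and *Taldo1* and *Pgd* lay among the first 3.

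**Figure D1:**
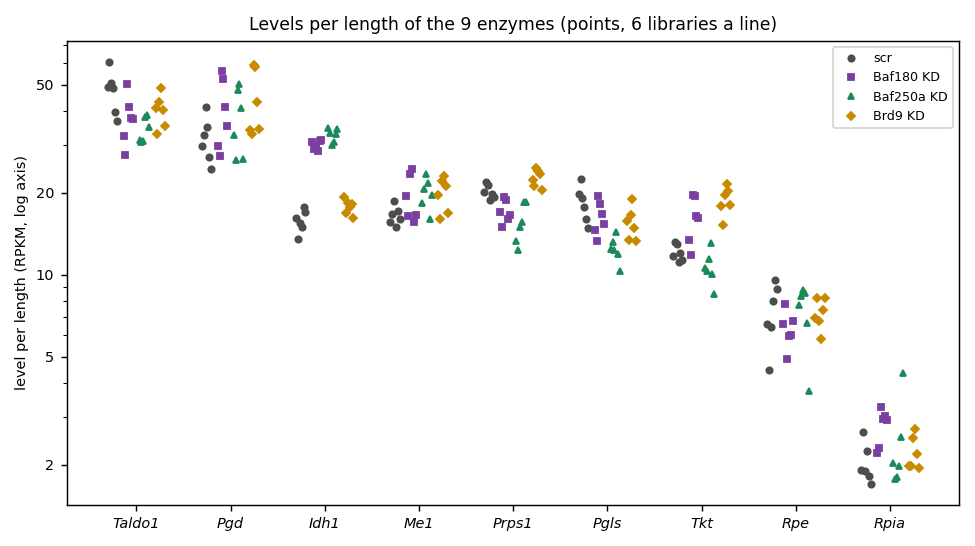
Levels per length (RPKM, log axis) of the 9 enzymes, ordered by their mean, with 1 point per library and the 4 lines side by side. *Taldo1* lies highest at a mean of 39.9 RPKM and *Rpia* lowest at 2.36 RPKM, and *Idh1* of the *Baf180* and *Baf250a* KD lines lies apart from that of the scr and *Brd9* KD lines.

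Whether Cu changed the expression of these enzymes was asked first within each line, against NT, and then as the mean response of the 4 lines. A gene is called a differentially expressed gene (DEG) at a Benjamini-Hochberg adjusted p under 0.05 over all genes tested, by edgeR's quasi-likelihood test, and fold changes are log2 with their SE. In the mean of the 4 lines, 4 of 9 members rose with Cu and none fell: *Pgd*, *Tkt*, *Me1* and *Taldo1*. Over all 16524 genes tested 7.86% were DEGs, and the median log2 fold change of the members was 0.18 against 0.01 for all genes. By line, 6 members were DEGs in *Baf180* KD (background 13.8%), 1 in *Baf250a* KD (background 1.27%), 1 in *Brd9* KD (background 0.274%) and 0 in scr (background 0.0333%). DESeq2 also called 0 members in scr. There 1 member, *Pgd*, had an unadjusted p under 0.05, as had 1559 of all 15002 genes. The lines differed in how many genes of any kind were called, so a member's call in one line and not in another does not show that the lines differ.

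*Pgd*, which makes NADPH in the oxidative branch, had the largest Cu response of the 9 in the mean of the lines and in each KD line, while in scr *Rpe* had a larger one (0.42, not called). In scr cells it was at 191 and 211 CPM without metal and at 267 and 226 CPM with Cu. In *Baf180* KD cells its level went from 191 and 177 CPM to 360.5 and 339 CPM. The pairs were 211 and 169.9 CPM against 309 and 323 CPM in *Baf250a* KD. In *Brd9* KD they were 219 and 213 CPM against 380.3 and 376 CPM. Both Cu libraries of *Pgd* were above both NT libraries in each of the 4 lines. The share of all genes whose groups of 2 libraries lay apart was not counted, for this or for the groups below. The log2 fold change was 0.31 ± 0.10 in scr (adjusted p = 0.461), 0.89 ± 0.09 in *Baf180* KD (adjusted p = 0.00268), 0.73 ± 0.11 in *Baf250a* KD (adjusted p = 0.000438) and 0.75 ± 0.09 in *Brd9* KD (adjusted p = 0.0175). The mean over the lines was 0.69 ± 0.07, a 1.61-fold rise (adjusted p = 2.33e-06), and *Pgd* stayed a DEG of the mean response whichever library was left out. In *Brd9* KD alone it lost the call whichever 1 of the 4 NT and Cu libraries was left out, at log2 fold changes that stayed between 0.75 and 0.77.

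*Pgls*, which acts before *Pgd* in the branch, had 55.0 and 50.3 CPM without metal and 73.2 and 68.5 CPM with Cu in *Baf180* KD (0.40 ± 0.09, adjusted p = 0.0222), but 74.5 and 84.7 against 72.3 and 67.0 CPM in scr (−0.18 ± 0.09, adjusted p = 0.525). In *Baf180* KD both Cu libraries lay above both NT libraries, and in scr, where the change was not called, below them. With an offset for GC content and length, described below, the values were 0.24 and −0.07, neither of them called. The mean response of *Pgls* was 0.14 ± 0.05 (adjusted p = 0.12).

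**Figure D2:**
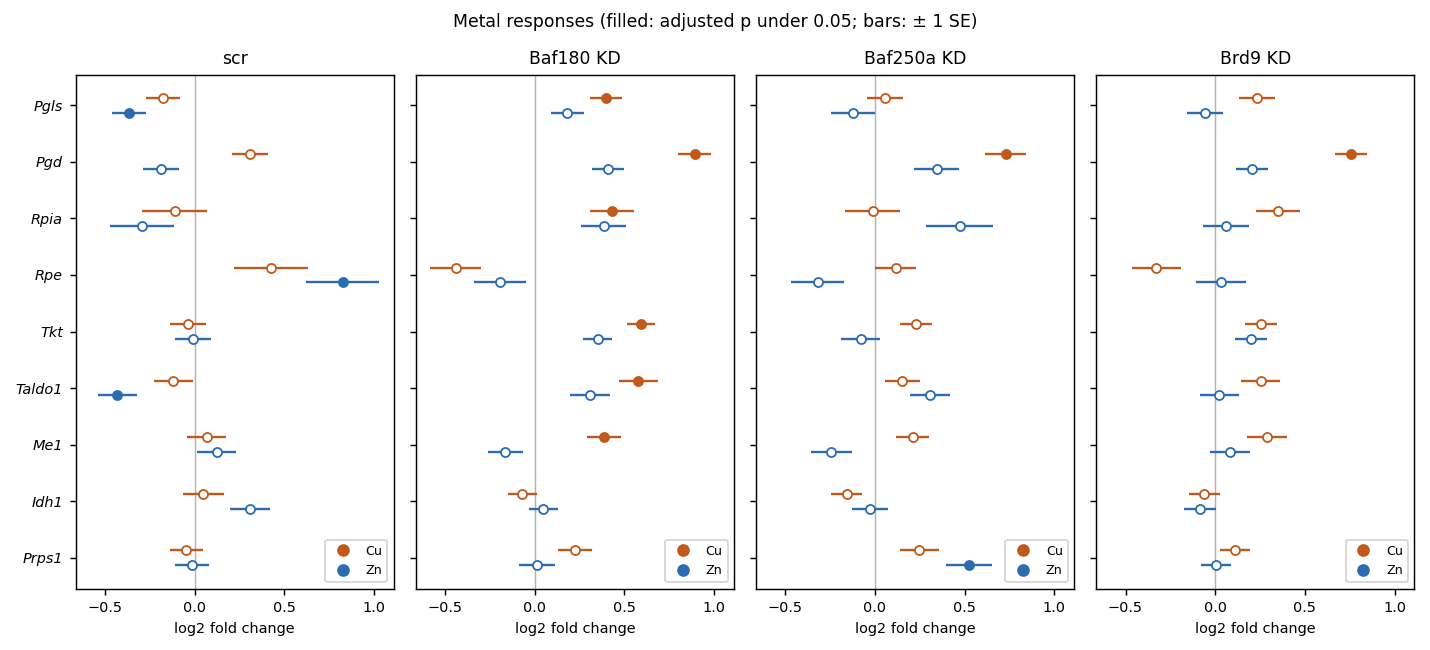
Log2 fold change of each enzyme with Cu (orange) or Zn (blue) against NT in each of the 4 lines, with bars of ± 1 SE and filled points for an adjusted p under 0.05. With Cu *Pgd* lies to the right in all 4 panels, from 0.31 in scr to 0.89 in *Baf180* KD, while *Idh1* lies between −0.16 and 0.05.

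In the non-oxidative branch, the carbon-exchanging enzymes rose with Cu in *Baf180* KD. *Tkt* went from 99.1 and 87.1 CPM to 144 and 143 CPM there, and *Taldo1* from 70.4 and 59.7 CPM to 109 and 89.6 CPM, with no overlap of the groups in either gene. The log2 fold changes in that line were 0.59 ± 0.08 for *Tkt* (adjusted p = 0.00535) and 0.58 ± 0.11 for *Taldo1* (adjusted p = 0.0125). In scr they were −0.04 ± 0.10 and −0.12 ± 0.11, and in *Baf250a* and *Brd9* KD between 0.15 and 0.26, with no call. The means over the lines were 0.28 ± 0.05 for *Tkt* (adjusted p = 0.00257) and 0.23 ± 0.07 for *Taldo1* (adjusted p = 0.0343). *Rpia* was a DEG with Cu in *Baf180* KD alone among the lines, from 11.8 and 12.3 CPM to 17.5 and 15.8 CPM (0.43 ± 0.12, adjusted p = 0.0423). *Rpe* had log2 fold changes of 0.42 ± 0.21 in scr, −0.44 ± 0.14 in *Baf180* KD, 0.12 ± 0.11 in *Baf250a* KD and −0.33 ± 0.14 in *Brd9* KD, none of them called.

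Of the other NADPH sources, *Me1* rose with Cu in *Baf180* KD from 74.8 and 63.1 CPM to 90.3 and 94.3 CPM (0.39 ± 0.09, adjusted p = 0.0274). Its mean response over the lines was 0.26 ± 0.06 (adjusted p = 0.0166), and its Cu libraries lay above the NT libraries in the 3 KD lines and overlapped them in scr. *Idh1* stood between −0.16 and 0.05 on the log2 scale in the 4 lines, with a mean of −0.04 ± 0.05 (adjusted p = 0.629). *Prps1* had a mean of 0.15 ± 0.05 (adjusted p = 0.0548), with Cu libraries above NT libraries in the 3 KD lines and groups that overlapped in scr.

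The calls in *Baf180* KD changed with the library left out, in fits that leave a single library in a group. The share of all genes called without a library is not given, here or below, so such counts describe the calls only. Without NT replicate 2 the count of members called fell from 6 to 1 (*Pgd*), without Cu replicate 1 to 2 (*Pgd* and *Tkt*) and without NT replicate 1 to 4, while it was 6 without Cu replicate 2, with *Rpe* (−0.59) in and *Me1* out. In the mean of the lines, *Pgd* and *Tkt* were called whichever library was left out. *Me1* lost the call without *Baf180* KD NT replicate 2 or *Brd9* KD NT replicate 2, and *Taldo1* without any of 9 libraries.

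Zn was compared in the same way. In the mean of the 4 lines 0 members were DEGs, against a background of 0.284%, and DESeq2 called 0. *Pgd* (0.17 ± 0.07) and *Prps1* (0.12 ± 0.05) had an unadjusted p under 0.05, as had 1570 of all 16524 genes. The metal-responsive controls *Mt1* and *Mt2*, which encode metallothioneins, and the zinc exporter *Slc30a1* were DEGs in the same fit, at 1.55, 2.07 and 1.03. By line, 3 members were DEGs in scr (background 17.6%), 0 in *Baf180* KD (background 0.0197%), 1 in *Baf250a* KD (background 15.9%) and 0 in *Brd9* KD (background 0.0334%). At an unadjusted p under 0.05 there were 4 members in *Baf180* KD, beside 1999 of all 15241 genes. In *Brd9* KD there was 1, beside 451 of all 14978 genes. DESeq2 called 1 member in *Baf180* KD and 0 in *Brd9* KD. The Zn and Cu comparisons of a line share its NT libraries.

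In scr cells *Rpe* rose with Zn from 20.5 and 13.9 CPM to 29.8 and 27.5 CPM (0.83 ± 0.20, adjusted p = 0.0362). *Taldo1* fell from 106 and 132 CPM to 85.9 and 79.9 CPM (−0.43 ± 0.11, adjusted p = 0.0373), and *Pgls* fell from 74.5 and 84.7 CPM to 60.2 and 56.2 CPM (−0.36 ± 0.09, adjusted p = 0.04). The groups did not overlap in any of the 3 genes. The longest transcript of *Rpe* is 39.2% GC, the lowest of the 9, and those of *Taldo1* and *Pgls* are 53.6% and 57.4%. The GC slope of a library is given relative to the mean of all libraries. It regresses each gene's deviation from its mean log2 expression on GC content. Per 10 percentage points it was 0.11 and 0.32 in the NT libraries of scr and −0.25 and −0.34 in its Zn libraries. With a smooth trend on GC content and length together as an offset in each library (the GC offset), the log2 fold changes were 0.04 for *Rpe*, −0.26 for *Taldo1* and −0.12 for *Pgls*, and none of them was called. The part of GC content alone was not tested. All 3 calls were also lost without NT replicate 2, Zn replicate 1 or Zn replicate 2, whereas without NT replicate 1 the count was 4, with *Idh1* (0.45) added.

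**Figure D3:**
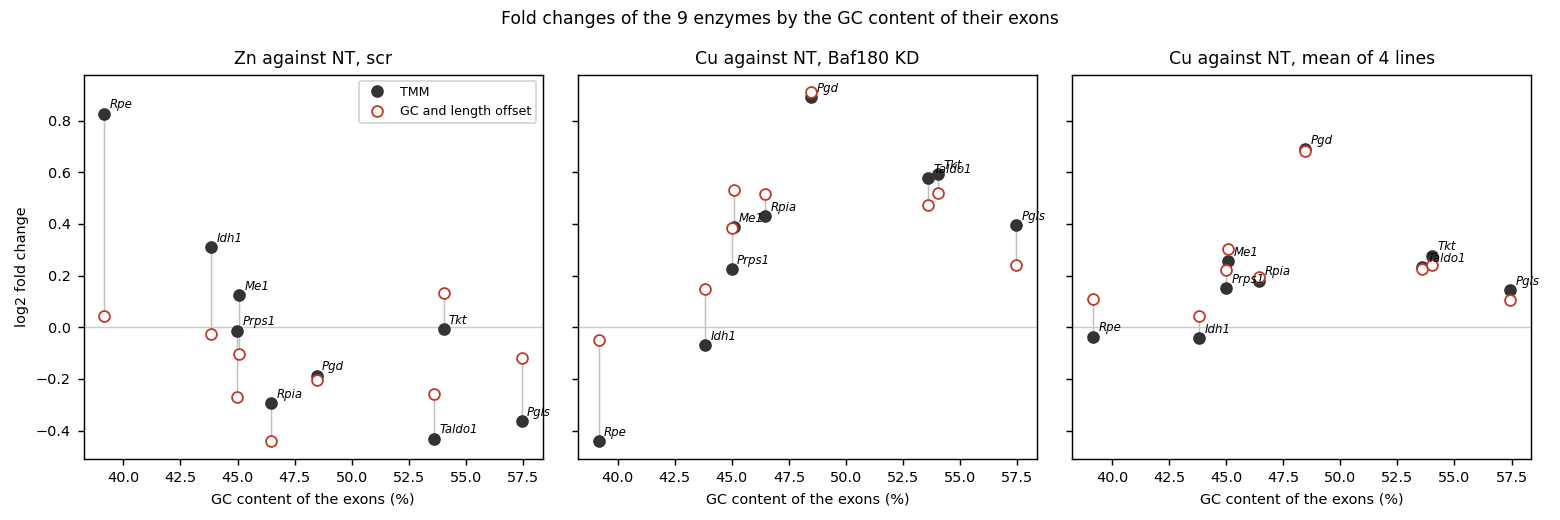
Log2 fold change against GC content (%) for the 9 enzymes in 3 comparisons, with TMM normalization (filled) and with an offset for GC content and length (open), joined by lines. The axis names the exons, and the values are those of each gene's longest transcript. In scr with Zn the point of *Rpe* moves from 0.83 to 0.04, and in the mean Cu response that of *Pgd* moves from 0.69 to 0.68.

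The Cu response was fitted with the same offset. In the mean of the 4 lines the same 4 members were called with it, *Pgd* at 0.68, *Me1* at 0.30, *Tkt* at 0.24 and *Taldo1* at 0.23. In *Baf180* KD 5 of the 6 calls were kept and *Pgls* (0.24) was lost, where the GC slope was 0.0015 and −0.15 in the NT libraries and 0.27 and 0.099 in the Cu libraries. In *Baf250a* KD *Pgd* kept its value of 0.73 and its call, and without NT replicate 2 of that line it was called at 0.58.

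In *Baf250a* KD cells with Zn, *Prps1* was the DEG, at 26.6 and 24.5 CPM without metal and 36.8 and 36.9 CPM with Zn (0.52 ± 0.13, adjusted p = 0.00693). Its value was 0.51 without the shallow library, whose *Prps1* level rests on 19 counts, and 0.68 with the GC offset, and it was called in both. Without the shallow library 4 members were called, *Prps1* with *Pgd* (0.47), *Taldo1* (0.31) and *Me1* (−0.29). *Pgd* read 265 CPM in Zn replicate 1 and 171 CPM in the shallow replicate 2, the widest split of the gene in any condition. The count was 0 without Zn replicate 1 or without NT replicate 2, and 2 (*Pgd* and *Prps1*) without NT replicate 1.

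**Figure D4:**
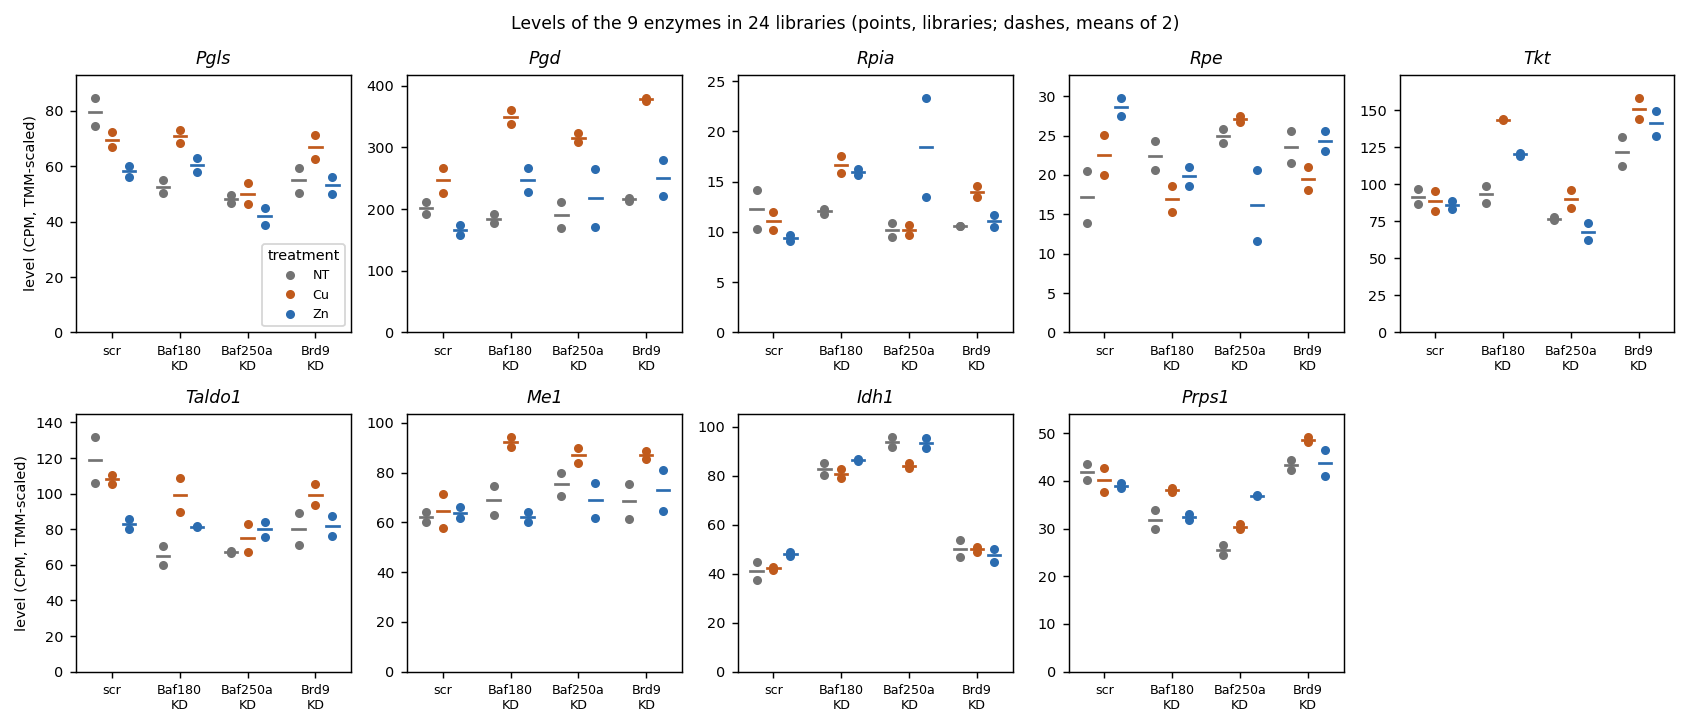
Level (CPM, TMM-scaled) of each enzyme in the 24 libraries by line, with points for libraries and dashes for the mean of 2, grey for NT, orange for Cu and blue for Zn. The Cu points of *Pgd* lie above its NT points in all 4 lines, and *Idh1* sits at 37.6 to 53.6 CPM in scr and *Brd9* KD and at 78.9 to 95.7 CPM in *Baf180* and *Baf250a* KD.

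The KD lines were then compared with scr at matched treatment. Without metal, 4 members differed in *Baf180* KD (background 41%), 6 in *Baf250a* KD (background 57.8%) and 3 in *Brd9* KD (background 29.2%). With Cu the counts were 5 (background 24.9%), 6 (background 41.2%) and 2 (background 12.2%), and with Zn 6 (background 49.9%), 6 (background 57.5%) and 2 (background 23.2%). The members' shares were not tested against those of all genes. With Cu, leaving out a KD library gave 2 members in *Baf180* KD for either one, 1 or 2 in *Baf250a* KD and 1 or 0 in *Brd9* KD. The 3 KD lines were compared with the same scr libraries.

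*Idh1* was the member that differed most by line. It was at 44.9 and 37.6 CPM in untreated scr, 85.3 and 80.2 CPM in *Baf180* KD, 95.7 and 91.8 CPM in *Baf250a* KD and 53.6 and 46.6 CPM in *Brd9* KD. Across all treatments the highest scr library read 49.0 CPM and the lowest *Baf180* or *Baf250a* KD library 78.9 CPM. The untreated log2 fold change was 1.02 ± 0.12 in *Baf180* KD, a 2.03-fold difference (adjusted p = 4.73e-05), and 1.19 ± 0.12 in *Baf250a* KD, a 2.28-fold difference (adjusted p = 2.48e-06). It was 0.30 ± 0.13 in *Brd9* KD (adjusted p = 0.109). With Cu and Zn the values were 0.93 and 0.79 in *Baf180* KD and 1.02 and 0.91 in *Baf250a* KD, each of them called, and 0.23 and −0.04 in *Brd9* KD. *Idh1* of these 2 lines was called with the GC offset as well, between 0.76 and 1.18.

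*Taldo1* and *Pgls* were lower in all 3 KD lines than in scr without metal. *Taldo1* was at 106 and 132 CPM in scr and at 70.4 and 59.7 CPM in *Baf180* KD, 68.0 and 66.5 CPM in *Baf250a* KD and 89.3 and 71.3 CPM in *Brd9* KD, which is −0.86 ± 0.13, −0.82 ± 0.12 and −0.55 ± 0.14 on the log2 scale (adjusted p = 0.000307, 7.47e-05 and 0.0201). *Pgls* was at 74.5 and 84.7 CPM in scr, 55.0 and 50.3 CPM in *Baf180* KD, 46.7 and 49.7 CPM in *Baf250a* KD and 59.4 and 50.4 CPM in *Brd9* KD. Its log2 fold changes were −0.58 ± 0.11, −0.72 ± 0.11 and −0.52 ± 0.12 (adjusted p = 0.00178, 0.000116 and 0.0141). All 6 values were called with the GC offset, and in *Brd9* KD both calls were lost without KD NT replicate 2 (−0.43 and −0.44). With Cu the differences were −0.13 and 0.02 in *Baf180* KD and −0.13 and −0.07 in *Brd9* KD, for *Taldo1* and *Pgls* in turn, with no call. With the GC offset they were −0.38 and −0.27 in *Baf180* KD, where *Taldo1* was called (adjusted p = 0.039), and −0.23 and −0.17 in *Brd9* KD. Both were called in *Baf250a* KD at −0.50 and −0.45. Those 2 calls were lost without Cu replicate 1 of that line (−0.36 and −0.34), and that of *Pgls* also without Cu replicate 2 (−0.57). With Zn *Pgls* was called in *Baf250a* KD (−0.40 ± 0.10, adjusted p = 0.000527), and lost the call without either scr library (−0.41 and −0.49) or without KD replicate 1 (−0.61). Zn values that did not pass the test but were called with the GC offset were *Pgls* in *Baf180* KD (from −0.01 to −0.37) and in *Brd9* KD (from −0.16 to −0.39) and *Taldo1* in *Baf180* KD (from −0.08 to −0.35).

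*Pgd* did not pass the test in any untreated KD line, with log2 fold changes of −0.11 ± 0.10 in *Baf180* KD, −0.08 ± 0.12 in *Baf250a* KD and 0.12 ± 0.09 in *Brd9* KD. In metal it was higher than in scr in every line. With Cu the values were 0.50 ± 0.13 (adjusted p = 0.0186), 0.38 ± 0.12 (adjusted p = 0.0347) and 0.60 ± 0.11 (adjusted p = 0.015) in *Baf180*, *Baf250a* and *Brd9* KD. With Zn they were 0.51 ± 0.08 (adjusted p = 0.000848), 0.55 ± 0.10 (adjusted p = 6.89e-06) and 0.56 ± 0.10 (adjusted p = 0.00531). Under the GC offset the *Baf250a* KD values were 0.25 with Cu and 0.36 with Zn and were not called, and without the shallow library the Zn value was 0.64 and was called. The same Zn call was lost without scr replicate 1 (0.50) or 2 (0.36) and without KD replicate 1 (0.02). With Cu, *Pgd* lost the call in each KD line when either Cu library of that line was left out, at 0.45 and 0.53 in *Baf180* KD, 0.42 and 0.34 in *Baf250a* KD and 0.59 and 0.60 in *Brd9* KD.

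*Tkt* was the member higher in *Brd9* KD under all treatments. Its libraries there read 132 and 112 CPM without metal, 144 and 158 CPM with Cu and 149.5 and 132 CPM with Zn, against 81.6 to 97.1 CPM in the 6 scr libraries. The log2 fold changes were 0.43 ± 0.11 (adjusted p = 0.0225), 0.76 ± 0.11 (adjusted p = 0.0057) and 0.69 ± 0.08 (adjusted p = 0.000493), and each was called with the GC offset. Without metal the call was lost when either *Brd9* KD library was left out (0.31 and 0.50), and with Cu when Cu replicate 2 of the KD line was (0.68). In *Baf180* KD, *Tkt* was at 0.04 ± 0.11 without metal and was higher with Cu (0.69 ± 0.12, adjusted p = 0.00197) and with Zn (0.43 ± 0.06, adjusted p = 0.00052), the last of which fell to 0.13 with the GC offset. Untreated *Tkt* in *Baf250a* KD was at −0.26 ± 0.11 (adjusted p = 0.0519), and was called with the GC offset (−0.33, adjusted p = 0.0029). In *Baf250a* KD it was lower with Zn (−0.25 ± 0.09, adjusted p = 0.0167), and was called with the GC offset (−0.60), but not without either scr library (−0.27 and −0.35) or without KD replicate 1 (−0.49).

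**Figure D5:**
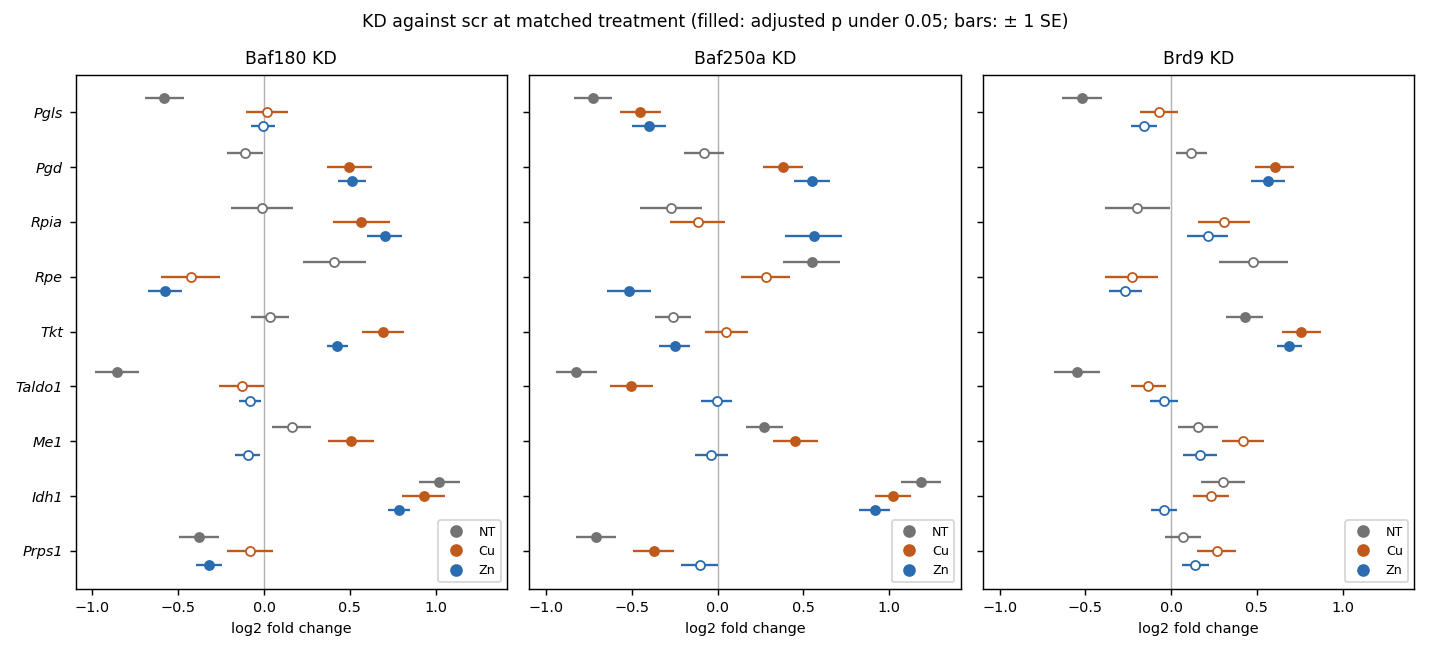
Log2 fold change of each enzyme in a KD line against scr at the same treatment, grey for NT, orange for Cu and blue for Zn, with bars of ± 1 SE and filled points for an adjusted p under 0.05. *Idh1* lies between 0.79 and 1.19 in *Baf180* and *Baf250a* KD, and untreated *Taldo1* and *Pgls* lie between −0.86 and −0.52 in all 3 panels.

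*Prps1* was lower than in scr without metal in *Baf180* KD (−0.38 ± 0.12, adjusted p = 0.0237) and in *Baf250a* KD (−0.71 ± 0.12, adjusted p = 0.000202), and stood at 0.07 ± 0.11 in *Brd9* KD. Its untreated levels were 40.2 and 43.6 CPM in scr, 33.8 and 29.9 CPM in *Baf180* KD, 26.6 and 24.5 CPM in *Baf250a* KD and 44.4 and 42.4 CPM in *Brd9* KD. *Rpia* was called with metal, at 0.57 ± 0.17 with Cu (adjusted p = 0.0312) and 0.70 ± 0.10 with Zn (adjusted p = 0.000613) in *Baf180* KD, and at 0.56 ± 0.17 with Zn in *Baf250a* KD (adjusted p = 0.00327), where it was 0.49 without the shallow library and was called, but was not called with the GC offset (0.53, adjusted p = 0.063). Untreated *Rpia* in *Baf250a* KD was at −0.27 ± 0.18 (adjusted p = 0.216), and was called with the GC offset (−0.43) and without scr NT replicate 1 (−0.48). *Me1* was higher with Cu in *Baf180* KD (0.51 ± 0.14, adjusted p = 0.0191) and *Baf250a* KD (0.45 ± 0.13, adjusted p = 0.0261), and without metal in *Baf250a* KD (0.27 ± 0.11, adjusted p = 0.0472), where the GC offset gave 0.05. In *Baf250a* KD with Cu the GC offset gave 0.29 and no call (adjusted p = 0.13). *Rpe* was called in *Baf180* KD with Zn (−0.58 ± 0.10, adjusted p = 0.00132) and in *Baf250a* KD without metal (0.55 ± 0.17, adjusted p = 0.0133) and with Zn (−0.51 ± 0.13, adjusted p = 0.000452), and with the GC offset these 3 values were −0.08, −0.07 and 0.18 and none was called.

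Many of the calls in the last 4 genes were lost when a library was left out, several of them at larger fold changes. Such a fit leaves a single library in a group, so a lost call does not show that the missing library made it. *Prps1* lost its call in *Baf180* KD without either untreated KD library (−0.49 and −0.34), and with Zn, where it was called at −0.32 ± 0.07 (adjusted p = 0.00717), without either scr library (−0.31 and −0.34) and with the GC offset (−0.21). With Cu it was called in *Baf250a* KD (−0.37 ± 0.12, adjusted p = 0.0399) and lost the call without either KD library (−0.34 and −0.41). *Me1* lost its Cu calls without either KD library (0.54 and 0.47 in *Baf180* KD, 0.41 and 0.50 in *Baf250a* KD), and in *Baf180* KD also without scr replicate 2 (0.36). Its untreated call in *Baf250a* KD was lost without either KD library (0.34 and 0.19). *Rpia* lost its Cu call in *Baf180* KD without scr replicate 1 (0.45) or either KD library (0.50 and 0.64), and its Zn call in *Baf250a* KD without either scr library (0.74 and 0.66). *Rpe* lost its untreated call in *Baf250a* KD without scr replicate 2 (0.27) or either KD library (0.58 and 0.49), and its Zn call there without either scr library (−0.58 and −0.68). With Zn in *Baf250a* KD, leaving out either scr library left *Idh1* as the only member called.

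Whether a KD line responded to a metal differently from scr was tested as the difference of the log2 fold changes, in a fit of all 24 libraries. For Cu, 5 members differed in *Baf180* KD (background 12.8%), 0 in *Baf250a* KD (background 0.0121%) and 0 in *Brd9* KD (background 0.0363%). For Zn, 6 differed in *Baf180* KD (background 28.7%), 5 in *Baf250a* KD (background 30.5%) and 0 in *Brd9* KD (background 11.1%). In the 3 comparisons with no call, DESeq2 called 0, 0 and 2 members. There 2, 6 and 6 members had an unadjusted p under 0.05, beside 1274, 2759 and 4953 of all 16524 genes. These differences share the scr libraries, and the 2 for each line share its NT libraries.

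With Cu, the response of *Tkt* was higher in *Baf180* KD than in scr by 0.68 ± 0.15 (adjusted p = 0.0107), that of *Taldo1* by 0.75 ± 0.19 (adjusted p = 0.0161), that of *Pgls* by 0.62 ± 0.15 (adjusted p = 0.0156) and that of *Pgd* by 0.63 ± 0.20 (adjusted p = 0.0413), while that of *Rpe* was lower (−0.81 ± 0.23, adjusted p = 0.0272). With the GC offset *Tkt* alone was called (0.53), and *Pgd* stood at 0.61 (adjusted p = 0.072). No member was called when scr NT replicate 2, scr Cu replicate 2, *Baf180* KD NT replicate 2 or *Baf180* KD Cu replicate 1 was left out. With Zn, *Pgd* (0.70 ± 0.20, adjusted p = 0.0124) and *Rpia* (0.79 ± 0.21, adjusted p = 0.0094) were higher in *Baf180* KD and were called with the GC offset too (0.64 and 0.89). *Taldo1*, *Pgls*, *Tkt* and *Rpe* were called at 0.85, 0.65, 0.46 and −0.92, and lost the call with the GC offset, at 0.52, 0.23, 0.19 and 0.01. In *Baf250a* KD with Zn, *Pgd* (0.58), *Taldo1* (0.81), *Rpia* (0.89) and *Prps1* (0.63) were higher and were called with the GC offset at 0.59, 0.66, 0.98 and 1.03, while *Rpe* went from −1.08 to 0.14. Without the shallow library the same 5 members were called, and without Zn replicate 1 *Rpia* alone (1.57). The count was 3 without scr or *Baf250a* KD NT replicate 2. In *Baf180* KD with Zn it was 2 without scr NT replicate 2 (*Pgls* and *Taldo1*) and 3 without scr Zn replicate 2. In *Brd9* KD, the Zn difference of *Rpe* went from −0.70 to −0.995 without scr NT replicate 1. Those of *Pgls*, *Taldo1*, *Rpia* and *Idh1* went from 0.40, 0.55, 0.46 and −0.30 to 0.49, 0.70, 0.67 and −0.43. The Cu difference of *Rpe* went from −0.68 to −0.98. Values of the other members in that fit, which leaves a single untreated scr library, are not given.

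The other genes of the pathway and of NADPH use were described from lists of named genes, beside 4.67% of all genes that rose and 3.2% that fell. In the mean Cu response, 10 of 13 genes of the NRF2 system rose and 0 fell (median 0.50), among them *Gclc* (0.56, the catalytic subunit of glutathione synthesis), *Srxn1* (0.82, sulfiredoxin) and *Nqo1* (1.02, a quinone reductase that uses NADPH). Of 14 genes for enzymes that use NADPH, 7 rose and 0 fell (median 0.20), including *Txnrd1* (0.54, thioredoxin reductase) and *Gsr* (0.40, glutathione reductase). Of 9 genes of glycolysis around the branch point, 5 rose (median 0.20), with *Pfkl* at 0.31, *Tpi1* at 0.24 and *Hk2* at 0.18. Of 12 genes of other NADPH sources, *Mthfd1l* (0.23), *Nadk* (0.20) and *Mthfd1* (0.18) rose (median 0.06). Of 10 tested genes in the rest of the pathway (median 0.07), *Tigar* (0.23), which lowers glycolytic flux, rose, and *Prpsap1* and *Dera* were at 0.13 each with no call. In none of these 5 lists did a gene fall. The NRF2 list and that of enzymes using NADPH share *Txnrd1* and *Nqo1*.

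In the untreated KD lines the same lists were compared with scr, beside 19.3% of all genes lower in *Baf180* KD, 28.9% in *Baf250a* KD and 14.1% in *Brd9* KD, and 21.7%, 28.9% and 15.1% higher. Of the glycolysis genes, 8 of 9 were lower in *Baf180* KD, 6 in *Baf250a* KD and 9 in *Brd9* KD, and none was higher. Of the rest of the pathway 3, 6 and 2 of 10 genes were lower and none was higher. Of the 14 NADPH users 5, 3 and 3 were higher and 3, 5 and 3 lower, and of the 12 other sources 3, 5 and 1 were higher and 3, 7 and 3 lower. Of the 13 genes of the NRF2 list 5, 5 and 3 were higher and 3, 7 and 4 lower. Among its genes, *Nqo1* was higher in the 3 lines (2.20, 2.33 and 1.43) as was *Gclc* (0.54, 0.75 and 0.52), whereas *Srxn1* (−0.82, −0.74 and −0.44) and *Txnrd1* (−0.71, −1.17 and −0.40) were lower. The lists were not counted with the GC offset or without a library, and the 3 lines share the scr libraries. The mean GC slope was 0.213 in untreated scr. It was −0.073, −0.13 and −0.14 in untreated *Baf180*, *Baf250a* and *Brd9* KD, and its part in the list counts was not tested. The summed level of the 6 myoblast markers was also lower in these lines than in scr over all treatments, as given above. That sum is mostly *Des*, with a median of 1166 CPM beside a median sum of 1644 CPM over all libraries. The markers were not compared one by one, and their part in these differences was not tested.

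The genes whose pattern was most like that of *Pgd* were found by the correlation of log2 CPM over the 24 libraries after each line's mean was taken out, among 9301 genes with a mean of at least 10 CPM. They were *Txnrd1* (r = 0.969), *Srxn1* (r = 0.959), *Abcc1* (r = 0.950, an exporter of glutathione conjugates), *Ankrd33b* (r = 0.945) and *Esd* (r = 0.937, which acts in formaldehyde detoxification). Without the shallow library they held ranks 2, 1, 3, 4 and 8. These points share libraries, lines and treatments, and the values are a description. Their mean Cu responses were 0.54 for *Txnrd1*, 0.82 for *Srxn1*, 0.52 for *Abcc1*, 0.46 for *Ankrd33b* and 0.70 for *Esd*, beside 0.69 for *Pgd*, and their mean Zn responses lay between 0.07 and 0.12. The genes were chosen for likeness to *Pgd* in these same libraries, which favours like responses, so these values are no separate result. The core of the antioxidant response element was found in a window of *Srxn1* and of *Txnrd1*, beside 13.99% of all genes, and in none of *Ankrd33b* and *Esd*, while *Abcc1* was not searched. A core of the metal response element was found in a window of *Srxn1* and of *Esd*, beside 28.23% of all genes. The antioxidant element matches are shown, again in capitals.
Srxn1, chr2:152105541-152105570, minus strand: tgtctcactcTGACCTAGCtgcccactgcc
Txnrd1, chr10:82859103-82859132, minus strand: cgtgtcagaaTGACAAAGCaaaaatccagt
Among the members themselves, over the 23 libraries without the shallow one, *Taldo1* went with *Pgls* (r = 0.886), and *Rpe* ran against *Taldo1* (r = −0.822), the last pair being 39.2% and 53.6% GC.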

How the data were processed

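RNA-seq libraries were made from rRNA-depleted RNA (NEBNext directional kit). The deposited counts per gene were made by the authors, who aligned reads to mm10 with STAR, kept uniquely mapped reads and counted them by strand with featureCounts. Deposited files of the authors' own DESeq2 comparisons hold fold changes and p-values and were not used. Groups were taken from the sample titles, since the treatment label contradicts them in some samples. Genes were filtered with filterByExpr, scaled by TMM and tested over all genes with edgeR's quasi-likelihood test (edgeR 4.0.16, R 4.3.3, Benjamini-Hochberg threshold 0.05). The fit of a metal response held the 6 libraries of its line, that of KD against scr the 4 libraries at the treatment, and that of mean responses and their differences all 24. CPM and RPKM used TMM-scaled totals and the union of exons in GENCODE M21, which matched 53292 of 55291 symbols. GC content is that of the longest transcript of a gene, and length that of its union of exons. For the offset, each gene's mean log2 CPM (prior count 2) over the libraries of the fit was taken out. Each library's deviations were then fitted on GC content and length with splines of 5 degrees of freedom, so the offset is relative to those libraries. The scripts were tested on simulated data. Depth limits the values of *Baf250a* KD Zn replicate 2, where the members had 6 (*Rpe*) to 88 (*Pgd*) counts.

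Alternatives were DESeq2 1.42.0, RLE size factors, all genes with at least 1 count, a replicate block, the offset, both together, leaving out each library and fitting all 24 libraries. All members described are named, with the targeted genes, up to 3 genes of each list with the lowest adjusted p in the mean Cu response, and the 5 genes most like *Pgd*. The members and lists were chosen with earlier results of these data known. Nothing was paired: p-values measure the spread between cultures that share only a replicate number. One gene of the set is not reported here.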

Additional observations from a re-analysis of the deposited data

Results flagged for a closer look

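The metal response of 16 member and line combinations differed from that of scr by the test of the difference itself (edgeR, adjusted p under 0.05), which is why they are listed here. Values are the KD response minus the scr response, in log2. Groups of 2 libraries are too small for a check of single outlying libraries.

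With Cu in *Baf180* KD the differences were 0.63 for *Pgd*, 0.62 for *Pgls*, 0.75 for *Taldo1*, 0.68 for *Tkt* and −0.81 for *Rpe*. With Zn in the same line they were 0.70 for *Pgd*, 0.65 for *Pgls*, 0.85 for *Taldo1*, 0.46 for *Tkt*, 0.79 for *Rpia* and −0.92 for *Rpe*. With Zn in *Baf250a* KD they were 0.58 for *Pgd*, 0.81 for *Taldo1*, 0.89 for *Rpia*, −1.08 for *Rpe* and 0.63 for *Prps1*.

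*Rpe*, whose longest transcript is 39.2% GC, was negative in all 3 sets, and with the offset for GC content and length its values were −0.31, 0.01 and 0.14. *Pgd*, at 48.5% GC, had 0.61, 0.64 and 0.59 with the offset, and the first was not called (adjusted p = 0.072). Over all alternatives its values ran from 0.51 to 0.76, 0.58 to 0.81 and 0.11 to 0.75. The value of 0.11 came without *Baf250a* KD Zn replicate 1. In each set the call of *Pgd* was lost without some single libraries. The GC slope per 10 percentage points, relative to the mean of all libraries, averaged 0.213 in untreated and −0.299 in Zn-treated scr libraries. The scr libraries enter all 16 values.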

How the results depend on the processing

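Each condition had 2 libraries, so calls close to the threshold moved with single libraries and settings. The share of all genes called under each alternative is not set beside the counts below. They describe the calls and were not compared with all genes. Of 72 called member values, 68 kept their sign under every alternative and 20 kept their call. RLE size factors moved no count of members called by over 1.5 times.

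The replicate block gave 0 members for Zn in scr (3 as reported), 2 for Zn in *Baf180* KD (0), 3 for *Baf250a* KD against scr with Zn (6) and 3 for the Zn difference of *Brd9* KD (0). The numbers share no stated source: over 66 pairs of groups the correlation of same-numbered deviations was −0.185 to 0.395 (median 0.0601) and was over 0.1 in 30.

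With the GC and length offset the counts were 0 for Zn in scr, 3 for *Baf250a* KD against scr with Zn, 1 for the Cu difference (5) and 2 for the Zn difference (6) of *Baf180* KD. With the offset and the replicate block they were 0, 1, 2 and 2 in the same order, 1 for Zn in *Baf180* KD and 5 for *Brd9* KD against scr with Zn (2). Signs turned with the offset for *Rpe* (−0.068 in untreated and 0.18 in Zn-treated *Baf250a* KD against scr, and 0.015 and 0.14 for the Zn differences of *Baf180* and *Baf250a* KD, or −0.067, 0.12, 0.015 and 0.083 with the block).

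DESeq2 called 1 member for Zn in *Baf180* KD, 0 for Zn in *Baf250a* KD (1), 1 for *Baf250a* KD against scr with Zn and 2 for the Zn difference of *Brd9* KD. With all genes of at least 1 count the numbers were 2 for Zn in *Baf180* KD, 2 for Zn in *Baf250a* KD, and 2 and 3 for the Cu and Zn differences of *Brd9* KD (0 each). Fitting all 24 libraries gave 5 for *Brd9* KD against scr untreated (3) and 4 with Cu (2).

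With 1 library left out, the counts ran from 0 to 4 for Zn in scr, 1 to 6 for Cu in *Baf180* KD, 0 to 4 for Zn in *Baf250a* KD, 0 for Cu in *Brd9* KD, and 2 to 6 for the mean Cu response (4). Against scr they ran from 3 to 5 (NT), 2 to 5 (Cu) and 5 to 6 (Zn) in *Baf180* KD, 4 to 8, 1 to 7 and 1 to 6 in *Baf250a* KD, and 0 to 5, 0 to 5 and 2 to 5 in *Brd9* KD. The lowest of these in *Baf180* KD came without Cu replicate 1 or 2 of that line. In *Baf250a* KD they came without Cu replicate 1 of the line or without scr Zn replicate 1 or 2. In *Brd9* KD they came without NT or Cu replicate 2 of the line. The highest in *Brd9* KD came without scr NT or Cu replicate 1 and without *Brd9* KD Zn replicate 2. The differences ran from 0 to 6 (Cu) and 2 to 6 (Zn) in *Baf180* KD, 1 to 5 (Zn) in *Baf250a* KD, and 0 to 1 (Cu) and 0 to 5 (Zn) in *Brd9* KD. The cause of these changes was not tested, beyond the loss of a library.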
